A study of Mus musculus with 6 samples.

Results

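The complement genes of fibroblasts described here are 9 genes, C1s1, C1ra, C3, C4b, Cfb, Cfd, Cd55, Serping1 and Masp1, out of 54752 genes in the count table. They were taken by symbol, after matching each Ensembl identifier to its mouse symbol, and all 9 were found. The genes were selected on their counts in these same libraries, whose levels were already known, so their differences from vehicle are given as descriptions, without a p-value. The RNA, depleted of rRNA, came from NIH/3T3 cells, an established line of mouse embryonic fibroblasts, in 3 groups of 2 replicates. The vehicle group received PBS, the DMSO group received 1 ng/ml of TGF-β1 plus DMSO, and the BI6727 group 1 ng/ml of TGF-β1 plus 5 μM BI6727, each for 72 h. BI6727 (volasertib) inhibits the mitotic kinase PLK1. Because the vehicle was PBS, the effects of TGF-β1 and of DMSO cannot be told apart, and no library had BI6727 without TGF-β1. Nothing in the labels says that replicates came from separate cultures, so errors measure only the spread between libraries.

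Complement is a cascade of plasma proteins that tags surfaces with fragments of C3 and C4 and can end in a membrane pore. In the classical pathway, C1q carries the proteases C1r and C1s, which cleave C4 and C2. In the lectin pathway, proteases of the MASP family do this, and in the alternative pathway factor D cleaves factor B bound to C3b. Membrane regulators such as CD55 and the secreted C1 inhibitor (Serping1) hold these steps in check. The liver makes most circulating complement, but fibroblasts also make several components, above all C1r, C1s, C3 and C4, and inflammatory cytokines are known to raise them.

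Library totals ranged from 18362378 to 24452153 counts, and normalized CPM are counts scaled to the library total with TMM factors. A count of 3 in a library, the upper limit that a count of 0 allows, came to between 0.124 and 0.167 normalized CPM. The DMSO replicates stood further apart than the others, with an SD over genes of the log2 difference between replicates of 0.377, against 0.163 for vehicle and 0.147 for BI6727. The 10 fibroblast markers all had counts in every library, and their summed level was 8120 to 8600 normalized CPM with vehicle, 7120 to 8190 with DMSO and 6440 to 6530 with BI6727. Of the 9 fibroblast markers that passed the study's filter, 2 were called lower with DMSO than with vehicle and 0 higher. The 2 were Pdgfra (log2 fold change -1.87) and Dcn (-1.97). In all, 6 of the 9 lay below 0, including S100a4 (-1.01), Thy1 (-0.91), Pdgfrb (-0.73) and Col1a2 (-0.67), which were not called. Above 0 were Col1a1 (0.67), Col3a1 (0.29) and Vim (0.28). Over all genes tested, 2.53% were called lower and 2.56% higher. With BI6727, 4 were called lower, Pdgfra and Dcn with Pdgfrb (-1.20) and Thy1 (-1.0), against 2.96% of all genes. Lum did not pass the study's filter. With edgeR's filterByExpr as the filter it was called lower, at -3.15 with DMSO and -3.60 with BI6727. The part of these markers in the results was not tested. The 10 macrophage markers summed to between 21.7 and 27.8 normalized CPM, and C1qa, C1qb, C1qc, Adgre1 and Tyrobp were at 0 in all 6 libraries. Cd14, the highest of the 10, had between 17.0 and 23.0 normalized CPM, Cd68 between 2.51 and 4.50, and Csf1r between 0.910 and 2.27. The 6 hepatocyte markers summed to at most 0.331 normalized CPM and the 5 epithelial ones to at most 0.612. The 5 endothelial markers summed to 0.312 and 0.910 normalized CPM with vehicle and to between 2.00 and 3.77 with TGF-β1. In bulk RNA, fewer cells that express a gene and less of its RNA per cell cannot be told apart.

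C3, the component on which the 3 pathways converge, had the highest level per length of the 9 genes with vehicle. C3 (ENSMUSG00000024164.15, mm10 chromosome 17, 57203970 to 57228136, minus strand) had 449 and 408 normalized CPM with vehicle, 59.2 and 35.9 with DMSO, and 51.3 and 61.1 with BI6727. Both vehicle libraries were far above the other 4, in which the highest value was 15.0% of the lowest vehicle value, and the BI6727 values lay on either side of DMSO replicate 1. In edgeR's quasi-likelihood fit, the log2 fold change against vehicle was -3.17 (standard error 0.233) with DMSO and -2.93 (standard error 0.231) with BI6727. No 50-base stretch of C3 transcripts occurs in another gene, so its counts are not shared with a copy.

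C1s1 and C1ra, which encode the proteases C1s and C1r of the first classical complex, lie close together on chromosome 6. C1s1 (ENSMUSG00000038521.17, 124530345 to 124542359, minus strand) had 133 and 111 normalized CPM with vehicle, 14.7 and 11.8 with DMSO, and 9.96 and 13.9 with BI6727. Its log2 fold change against vehicle was -3.20 (standard error 0.201) with DMSO and -3.35 (standard error 0.202) with BI6727. C1ra (ENSMUSG00000055172.10, 124512405 to 124523443, plus strand) had 68.2 and 61.9 normalized CPM with vehicle, 5.46 and 4.38 with DMSO, and 2.95 and 5.22 with BI6727. As for C3, the vehicle values of both genes lay apart from the 4 libraries with TGF-β1, and the 2 groups with TGF-β1 overlapped. C1ra reached 10 CPM in 2 libraries, the vehicle ones, and so fell under the study's filter of 10 CPM in more than 3 samples. With edgeR's filterByExpr in its place, its log2 fold change was -3.71 (standard error 0.243) with DMSO and -3.95 (standard error 0.247) with BI6727.

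C4b, the substrate of C1s whose fragment C4b joins the C3 convertase, was a low gene with the largest fold change between DMSO and vehicle of the 6 genes that could be fitted. With BI6727, that of C1ra was larger. C4b (ENSMUSG00000073418.4, chromosome 17, 34728380 to 34743882, minus strand) had 10.5 and 7.37 normalized CPM with vehicle, 0.628 and 0.385 with DMSO, and 0.946 and 0.828 with BI6727. These values rest on 202 and 162 counts with vehicle, but 13 and 8 with DMSO and 17 and 20 with BI6727. In the filterByExpr fit, the log2 fold change was -4.11 (standard error 0.361) with DMSO and -3.31 (standard error 0.333) with BI6727. It reached 10 CPM in 1 library, a vehicle one.

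Masp1 and Cd55 stood nearer to their vehicle levels. Masp1, the gene of a serine protease of the lectin pathway (ENSMUSG00000022887.9, chromosome 16, 23449417 to 23520815, minus strand), had 108 and 86.9 normalized CPM with vehicle, 80.5 and 57.9 with DMSO, and 63.1 and 57.0 with BI6727. The highest value with TGF-β1 was 92.7% of the lowest with vehicle, and the log2 fold change was -0.49 (standard error 0.179) with DMSO and -0.70 (standard error 0.180) with BI6727. Cd55, whose membrane protein speeds the decay of C3 convertases (ENSMUSG00000026399.12, chromosome 1, 130439027 to 130462744, minus strand), had 10.5 and 9.42 normalized CPM with vehicle. It had 3.91 and 3.95 with DMSO and 1.95 and 4.55 with BI6727, the last pair resting on 35 and 110 counts. Its log2 fold change in the filterByExpr fit was -1.33 (standard error 0.332) with DMSO and -1.57 (standard error 0.336) with BI6727, without overlap of either group with vehicle. The BI6727 value was -1.11 without BI6727 replicate 1 and -2.33 without BI6727 replicate 2.

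Serping1, Cfd and Cfb were at or near the limit of detection. Serping1, the gene of C1 inhibitor (chromosome 2, 84765387 to 84775444), had 20 and 0 counts in the vehicle libraries, 6 and 5 with DMSO, and 3 and 7 with BI6727. The vehicle replicates thus lay on either side of the other 4 libraries, and no direction could be given. Cfd, the gene of factor D (chromosome 10, 79890853 to 79892655), did not exceed 2 counts in any library. Cfb, the gene of factor B (chromosome 17, 34856374 to 34862518), had 0 counts in all 6 libraries. Exons of the readthrough model Gm20547, also at 0 counts, overlap 79.5% of the exonic length of Cfb on the same strand. How reads on both genes were counted is not given in the sources used here, so that 0 counts of Cfb are a statement on the remaining exonic sequence only.

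**Figure D1:**
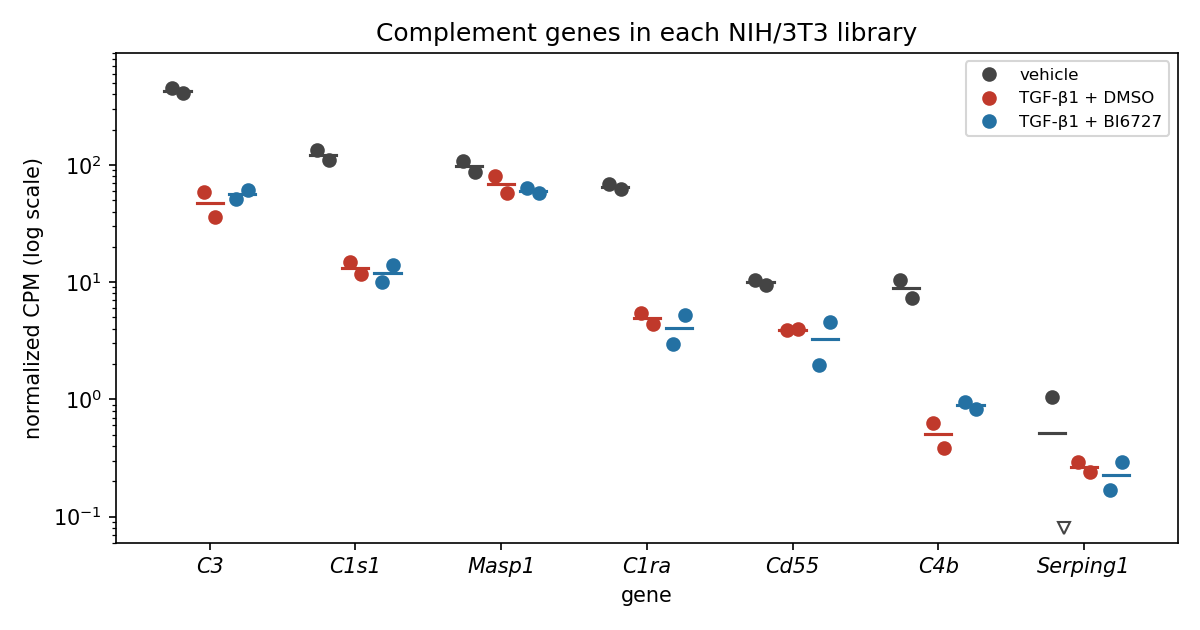
Normalized CPM on a log axis of 7 complement genes in each library, with a point per library and a bar at the mean of the 2 replicates of a group. An open triangle marks a library at 0 counts. Both vehicle points of C3, C1s1, C1ra and C4b lie far above the 4 points with TGF-β1, while Masp1 differs little; Cfb and Cfd, with at most 2 counts in a library, are not drawn.

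The 9 genes together came to 780 and 685 normalized CPM with vehicle, 165 and 115 with DMSO, and 130 and 143 with BI6727. C3 made up 57.5% and 59.6% of this sum with vehicle, and between 31.3% and 42.8% in the libraries with TGF-β1. Masp1 made up 13.9% and 12.7% with vehicle and between 39.9% and 50.5% with TGF-β1. Per kilobase of exon, the mean level with vehicle was 83.3 normalized CPM for C3, 39.0 for C1s1, 21.8 for C1ra, 9.92 for Masp1, 2.05 for Cd55 and 1.57 for C4b. With vehicle, no neighbours in this order overlapped between replicates. With DMSO, the order became C3 at 9.24, Masp1 at 7.04, C1s1 at 4.24, C1ra at 1.65 and Cd55 at 0.810 normalized CPM per kilobase, and C3 and Masp1 overlapped. With BI6727, C3 at 10.9 and Masp1 at 6.10 did not overlap, and C1s1 and C1ra followed at 3.81 and 1.37. In both groups with TGF-β1, the level of Masp1 per kilobase thus lay above those of C1s1 and C1ra, while with vehicle it lay under both.

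Calls required an adjusted p-value (Benjamini-Hochberg, over all genes tested) below 0.01 with a fold change above 2. Of the 9 genes, 3 passed the study's filter, C3, C1s1 and Masp1, and 6 passed filterByExpr, which also kept C1ra, C4b and Cd55. Between DMSO and vehicle, 2 of the 3 were called lower, against 2.53% of the 9518 genes tested. In the filterByExpr fit 4 of the 6 were called lower, against 3.23% of 14604 genes. All 6 were lower in both DMSO libraries than in both vehicle libraries, a pattern found in 32.8% of genes in that fit. Between BI6727 and vehicle, a comparison that shares the vehicle libraries, 2 of 3 and 4 of 6 were called lower, against 2.96% and 3.71% of genes (2.34% were called higher under the study's filter), and all 6 were lower in both BI6727 libraries, as were 37% of genes. The choice of genes may itself have used these levels, so nothing is read from these counts. The calls were C3 and C1s1 in both fits, with C1ra and C4b in the second. Cd55 was not called in either comparison, but it was called in both with DESeq2, with only the 2 groups compared and with offsets for gene length.

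The comparison of BI6727 with DMSO asks whether BI6727 at 5 μM changed these genes under TGF-β1. None of the 6 genes was called (0 of 6, where 0% of genes were), and the adjusted p-values of edgeR over all genes ranged from 0.738 to 0.912. The smallest unadjusted p-value was 0.10, and DESeq2 also called 0 of the 6. Over all genes, 0 of 9518 were called by edgeR, which is 0% of them, with 636 (6.68%) at an unadjusted p-value below 0.05, and 11 by DESeq2. The log2 fold change was 0.24 for C3 (95% interval -0.27 to 0.76), -0.15 for C1s1 (-0.62 to 0.32) and -0.21 for Masp1 (-0.63 to 0.22). In the filterByExpr fit it was -0.24 for C1ra (-0.83 to 0.36), -0.24 for Cd55 (-1.04 to 0.56) and 0.80 for C4b (-0.19 to 1.79). Each interval holds 0, and those of C3, C1s1, C1ra and Masp1 leave out a change of 2-fold in either direction, while those of C4b and Cd55 do not. In C4b, the lower BI6727 library was above the higher DMSO library, as in 16.7% of genes in that fit, and the other 5 genes overlapped between the groups.

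The value of C3 in this comparison depended on the DMSO library used. Without DMSO replicate 1, its log2 fold change was 0.66. Without DMSO replicate 2, it was -0.08.

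**Figure D2:**
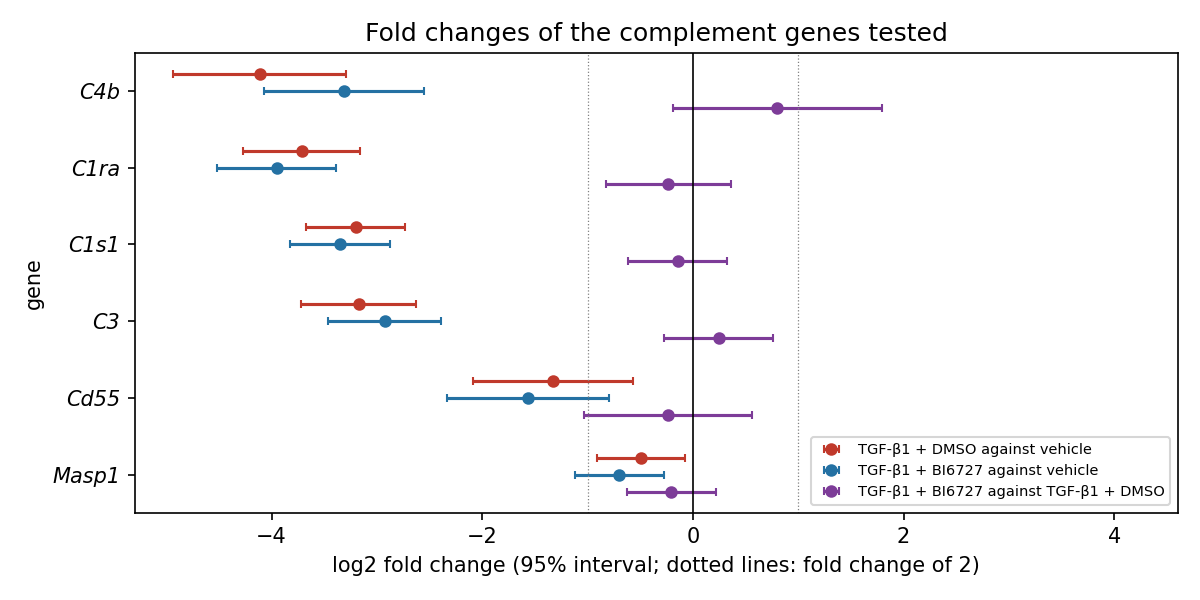
Log2 fold changes, with 95% intervals from edgeR's quasi-likelihood fit, of the 6 complement genes that could be fitted, in 3 comparisons. C3, C1s1 and Masp1 come from the fit with the study's filter and the others from that with filterByExpr. C4b, C1ra, C1s1 and C3 lie between -4.11 and -2.93 against vehicle, and every interval between BI6727 and DMSO crosses 0.

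Several of these genes have a close copy next to them, with which short reads can be confused. Of the 50-base windows of C1s1 transcripts, 21.8% occur also in C1s2, and 48.0% of those of C1ra occur in C1rb. Seen from the copies, 26.9% of the windows of C1s2 occur in C1s1 and 59.2% of those of C1rb in C1ra. For C4b the share found in C4a was 34.6%, and for Cd55 it was 8.0% in Cd55b. The noncoding gene Gm16567, at 0 counts in all libraries, lies antisense to 18.4% of the exonic length of C1s1, so that reads there may also not have been counted.

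C1s2 had 17.5 and 11.4 normalized CPM with vehicle, 2.41 and 1.54 with DMSO, and 1.67 and 1.57 with BI6727, and was called lower in both comparisons with vehicle. Its log2 fold change was -2.85 with DMSO (standard error 0.306, edgeR's adjusted p = 0.000419) and -3.13 with BI6727 (standard error 0.314, edgeR's adjusted p = 0.000259). The ratio of C1s1 to C1s2 counts was 7.61 and 9.73 with vehicle, 6.08 and 7.69 with DMSO, and 5.97 and 8.82 with BI6727, so that the groups overlapped. Whether reads from C1s1 were counted for C1s2 was not tested, so C1s2 is not an independent reading. C1rb was near the floor, with 50 and 46 counts with vehicle, 9 and 15 with DMSO, and 4 and 5 with BI6727, and was called with BI6727 (log2 fold change -3.40, edgeR's adjusted p = 0.00247) but not with DMSO (-2.00, edgeR's adjusted p = 0.0158). C1rb passed filterByExpr only because of its vehicle libraries, so a call could only be lower and is no test.

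C4a, which encodes sex-limited protein and lies on the same stretch of chromosome 17, was not called. It had 61 and 75 counts with vehicle, 63 and 91 with DMSO, and 28 and 66 with BI6727. The log2 fold change of C4a was 0.18 with DMSO (standard error 0.331, edgeR's adjusted p = 0.733) and -0.58 with BI6727 (standard error 0.344, edgeR's adjusted p = 0.267). The ratio of C4b to C4a counts was 3.31 and 2.16 with vehicle, 0.206 and 0.0879 with DMSO, and 0.607 and 0.303 with BI6727. The ratio thus lay above 1 in both vehicle libraries and under 1 in the other 4.

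**Figure D3:**
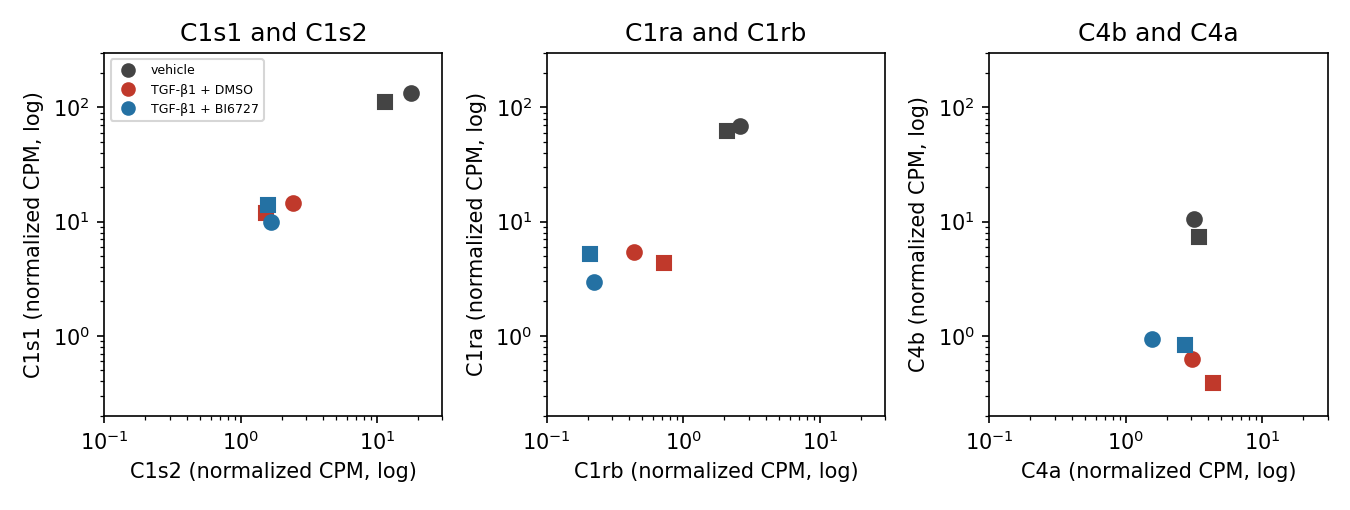
Normalized CPM of C1s1, C1ra and C4b against those of their copies C1s2, C1rb and C4a, both on log axes, with a point per library (circle replicate 1, square replicate 2). C1s2 and C1s1 are both lower in the 4 libraries with TGF-β1, whereas C4a lies between 1.56 and 4.38 normalized CPM in all 6 libraries while C4b drops from at least 7.37 to at most 0.946.

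The genes around the complement genes were also read, as the nearest on either side that passed the study's filter, which need not be adjacent. Around C1ra and C1s1, these were Pex5 (log2 fold change 0.24, DMSO against vehicle) and Lpcat3 (-0.57), both over 97 kb from C1ra. Around C3 they were Tnfsf9 (0.55) and Gpr108 (-0.24), the latter 6.5 kb away. Around C4b they were Atf6b (-0.34) at 73.3 kb and Stk19 (0.21) at 80.1 kb. Around Masp1 they were St6gal1 (0.18) and Bcl6 (0.69), the latter 444.2 kb away. Around Cd55 they were Gm15790 (-0.01) at 641.2 kb and Mapkapk2 (-0.02) at 591.0 kb. Around Serping1 they were Clp1 (0.40) and Ube2l6 (-0.69), and around Cfb Nelfe (0.09) and Zbtb12 (-0.52). None of these was called in the comparison of DMSO with vehicle. The filter drops genes that are high only with vehicle, so nothing is read from the absence of lower calls. C1rl, C1rb and C1s2 lie between Pex5 and Lpcat3 but did not pass it. In the filterByExpr fit, their log2 fold changes with DMSO against vehicle were -1.17, -2.00 and -2.85. On the sides of Cfd lay Med16 (-0.51), not called, and Plppr3, the 1 called gene among the neighbours that passed the study's filter. Plppr3 rose by 2.23 on the log2 scale (edgeR's adjusted p = 0.000115).

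Promoter windows, from 250 bases before to 50 after the start of a gene, were matched in RefSeq (GRCm38.p6, the same assembly as mm10) for 5 of the 9 genes, C3, C1s1, C1ra, Cd55 and Cfd. They were searched on both strands for 7 short motifs. The C/EBP motif (TTGCNNAA) is of interest because C/EBP factors are textbook regulators of acute-phase genes. It occurred in the windows of C3 and C1ra and in 1 of the 2 windows of C1s1, which has 2 start sites, and not in those of Cd55 and Cfd, and in 10.8% of all 32851 windows. The match of C1ra lies after the start, at positions 16 to 23. The start used for C1ra, 124512621, also lies inside the gene span given above, so much of its window is within the counted gene. The GAS motif (TTCNNNGAA) occurred in that of C1ra, after the start at positions 32 to 40, and in 8.30% of all windows. The SMAD-binding letters (CAGAC) were in those of C1ra, Cd55 and Cfd and in 49.6% of all. The TATA box (TATAAA) was found after the start of C3 and in 13.6% of all windows. AP-1 (TGANTCA), NF-κB and ISRE core letters were in none of the 5, against 7.81%, 5.56% and 3.44% of all windows. A match is a description of the letters and not a site in use.

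The bases upstream of C3 and C1s1, the 2 genes called in both fits, are given 5′ to 3′ on the strand of the gene, with matches to the C/EBP motif in capitals. The C3 sequence is chr17:57228137-57228386 on the minus strand and ends at the base before the start, and its match lies at positions -45 to -38 from the start. The C1s1 sequence is chr6:124542393-124542609 on the minus strand, from the window of the first start site, cut where the RefSeq gene begins, and its match lies on the opposite strand, at positions -242 to -235 from the start used for the window.
C3: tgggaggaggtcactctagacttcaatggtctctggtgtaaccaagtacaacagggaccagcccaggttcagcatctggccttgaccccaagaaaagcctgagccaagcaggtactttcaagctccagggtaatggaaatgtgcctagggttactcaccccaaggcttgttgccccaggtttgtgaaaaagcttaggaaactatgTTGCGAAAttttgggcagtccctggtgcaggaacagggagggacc
C1s1: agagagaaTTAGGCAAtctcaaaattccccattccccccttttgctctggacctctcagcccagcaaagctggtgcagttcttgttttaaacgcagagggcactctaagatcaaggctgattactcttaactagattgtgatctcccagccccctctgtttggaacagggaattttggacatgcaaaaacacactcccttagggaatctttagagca

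Other genes of the complement system were taken from 6 lists, chosen with earlier results of these data known, so nothing is read from the shares called. The lists held 53 genes in all. Of these, 5 passed the study's filter and 21 passed filterByExpr. In the second fit, 2 were called higher and 2 lower with DMSO than with vehicle, and 17 were not called. The background there was 2.75% of genes higher and 3.23% lower, and the median log2 fold change was -0.13, against -0.01 over all genes tested. With BI6727 against vehicle, 2 were higher and 3 lower, against 2.51% and 3.71% of genes. Cfi among the higher and C1rb among the lower could be called in that direction only, given the filter. Between BI6727 and DMSO, 0 of 21 were called, where 1040 of 14604 genes (7.12%) had an unadjusted p-value below 0.05 and DESeq2 called 15 of all genes.

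Of the classical pathway, C1s2 was called lower with DMSO, and C1s2 and C1rb with BI6727, where the direction for C1rb was fixed by the filter. Outside the genes called and the most abundant ones, further complement genes are named here after their values were seen. C1rl, a C1r-like protease gene beside C1ra, had 4.26 and 4.69 normalized CPM with vehicle, 1.11 and 2.84 with DMSO, and 1.61 and 1.32 with BI6727, and was not called (edgeR's adjusted p = 0.0756 with DMSO). C2, the partner of C4b in the C3 convertase, held at most 17 counts in a library, with 46.9% of its exonic length overlapped by other genes. C1q, to which the C1r and C1s proteases bind, was at 0 counts for each of its 3 genes in every library. Of the terminal pathway, whose proteins form the pore, only C8g passed filterByExpr, and C7, C8a and C8b were at 0 throughout. Cfp, the gene of properdin, was not called in any comparison.

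Colec12, a scavenger receptor of the collectin family, was the lectin pathway gene called. It had 303 and 289 normalized CPM with vehicle, 132 and 102 with DMSO, and 110 and 108 with BI6727. Its log2 fold change was -1.34 with DMSO (standard error 0.131, edgeR's adjusted p = 0.000603) and -1.44 with BI6727 (standard error 0.131, edgeR's adjusted p = 0.000425).

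Among the regulators, 2 genes were called higher. Clu, the gene of clusterin, which binds the nascent terminal complex, had 3.17 and 3.82 normalized CPM with vehicle, 15.4 and 18.0 with DMSO, and 23.1 and 20.3 with BI6727. It passed the study's filter through the 4 libraries with TGF-β1 alone, so a higher call there was fixed by the filter. In the filterByExpr fit, with 61 and 84 counts with vehicle, Clu had a log2 fold change of 2.26 with DMSO (standard error 0.190, edgeR's adjusted p = 0.000117). With BI6727 the value was 2.64 (standard error 0.190, edgeR's adjusted p = 5.29e-05). Cfi, the gene of factor I, which cleaves C3b and C4b, had 0 counts in both vehicle libraries, 35 and 47 with DMSO, and 29 and 32 with BI6727. Against the floor of 3 counts in each vehicle library, it was at least 13.5-fold higher with DMSO and at least 10.1-fold higher with BI6727. Cfi passed filterByExpr through the libraries with TGF-β1 alone, so a higher call was fixed by the filter. Cr1l, a membrane regulator of C3 convertases in rodents, lay between 57.0 and 72.3 normalized CPM in all libraries and was not called. Cd59a, which blocks the pore, and Cd46 were not called. Without vehicle replicate 1, neither Clu nor Colec12 was called with DMSO under the study's filter (0 of 5), without vehicle replicate 2 it was 1 of 5, and with replicate 1 left out calls over all genes went from 485 to 127.

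The receptor list held the most abundant genes, which have other main roles. Calr, an endoplasmic reticulum chaperone that can bind C1q, lay between 836 and 1110 normalized CPM, and C1qbp, a mitochondrial protein that binds C1q, between 201 and 287, and neither was called. C3ar1, the receptor of C3a, had 14 and 9 counts with vehicle, 22 and 50 with DMSO, and 30 and 29 with BI6727, and was not called (edgeR's adjusted p = 0.0711).

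**Figure D4:**
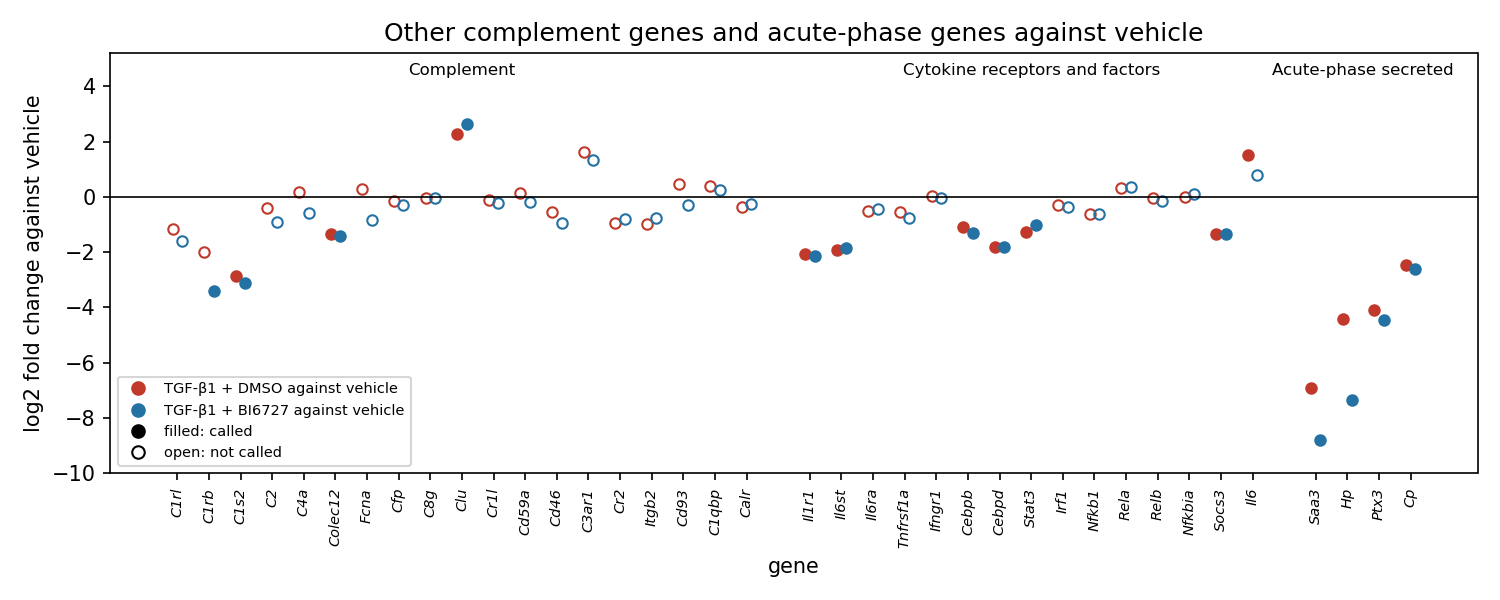
Log2 fold changes against vehicle, in edgeR's filterByExpr fit, of complement genes outside the 9, of cytokine receptors and transcription factors, and of acute-phase secreted genes. Filled points were called and open points were not; Cfi and Lcn2, with libraries at 0 counts, are left out. Clu and Il6 are the called genes above 0, and Saa3, Hp, Ptx3 and Cp lie between -8.79 and -2.47.

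Complement genes are known to be raised by interleukin-1, interleukin-6 family cytokines and interferons, and a list of 18 receptors, transcription factors and feedback genes of these pathways was read beside them. Of 14 that passed the study's filter, 6 were called lower with DMSO than with vehicle and 0 higher, against 2.53% and 2.56% of all genes. The list was chosen with earlier results of these data known, so nothing is read from this count. Il1r1, the interleukin-1 receptor, went from 114 and 101 to 29.1 and 22.4 normalized CPM (log2 fold change -2.07, edgeR's adjusted p = 0.000201). Il6st, the gp130 subunit shared by interleukin-6 family receptors, went from 389 and 358 to 123 and 74.5 normalized CPM (log2 fold change -1.92, edgeR's adjusted p = 0.00112). The transcription factor genes Cebpd, Stat3 and Cebpb had log2 fold changes of -1.81, -1.29 and -1.12, and the feedback gene Socs3 one of -1.34. In the filterByExpr fit, Il6, the cytokine itself, was called higher, from 6.02 and 3.69 to 11.0 and 16.1 normalized CPM (log2 fold change 1.49, edgeR's adjusted p = 0.00670). Il6 was not called with BI6727 against vehicle (7.73 and 8.86 normalized CPM, edgeR's adjusted p = 0.0768), and the difference of the 2 groups with TGF-β1 was not called either (edgeR's adjusted p = 0.655). Of the abundant genes of the list, Tnfrsf1a had a log2 fold change of -0.57, Nfkb1 of -0.63 and Nfkbia of -0.02, and none was called. Whether any gene of this list had a part in the levels of the complement genes was not tested.

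Of 6 secreted acute-phase genes, 5 passed filterByExpr, and these 5 were called lower with DMSO and with BI6727, against 3.23% and 3.71% of genes. This list too was chosen with earlier results of these data known, and the 5 include Lcn2, discussed below. Nothing is therefore read from the count. Saa3, serum amyloid A3, had 206 and 99.8 normalized CPM with vehicle and 1.40 and 1.11 with DMSO, and 10 and 4 counts with BI6727. Hp, haptoglobin, had 49.7 and 23.6 normalized CPM with vehicle and 2.66 and 0.722 with DMSO, and 6 and 3 counts with BI6727. Ptx3, a pentraxin that binds C1q, had 191 and 136 normalized CPM with vehicle, 9.95 and 8.96 with DMSO, and 7.18 and 7.49 with BI6727. Cp, ceruloplasmin, had 289 and 250 with vehicle, 58.5 and 37.9 with DMSO, and 42.3 and 44.8 with BI6727. Lcn2 had 54 and 65 counts with vehicle and at most 4 in a library with TGF-β1. It passed the filter through the vehicle libraries alone, so a lower call was fixed by the filter. Orm1, with at most 4 counts in a library, was not tested. None of the 5 was called between BI6727 and DMSO (0 of 5 by edgeR, with unadjusted p-values of 0.0119 for Hp and 0.0375 for Saa3).

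Over the 6 libraries, the gene most like C3 was Osmr, the oncostatin M receptor subunit, at a Euclidean distance of 0.401 on the log2 scale, with each gene centred on its vehicle mean. The gene most like C1s1 was Adam23 (distance 0.567), and the gene most like Masp1 was Mmp2 (distance 0.161). Osmr had log2 changes from its vehicle mean of -2.61 and -3.41 with DMSO and -2.96 and -3.02 with BI6727. C3 had -2.85 and -3.58 with DMSO and -3.06 and -2.81 with BI6727. These are likenesses over 6 libraries of 3 groups, which any gene with a large difference from vehicle shares in part.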

How the data were processed

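RNA-seq counts of 6 NIH/3T3 libraries were used. The authors mapped single-end reads of 50 cycles to mm10 with Subjunc (Subread 1.6.4) and ran featureCounts against Gencode M20, and the counts were deposited without normalization. The strand setting is not given in the sources used here. Following the study, the filter kept a gene that reached 10 CPM in over 3 samples. Tests were edgeR's quasi-likelihood test (version 4.0.16 in R 4.3.3) on all 6 libraries, scaled by TMM, with no covariate. A gene under this filter was read from a second fit on genes kept by filterByExpr. DESeq2 1.42.0 was an alternative. Standard errors are the log2 fold change divided by the square root of F.

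The 9 genes and the lists were chosen with earlier results of these data known. The wider genes named are those called in either fit and the 5 most abundant others, with the copies, the nearest tested neighbours and the most similar gene of each tested member. Shared 50-base windows were counted in Gencode M21 transcripts on either strand. On simulated counts, 200 of 200 genes changed 3-fold were called among 9518 genes for DMSO against vehicle, and 156 of 200 among 14604. The simulation gave each gene the same spread in all groups, whereas the real DMSO replicates stood further apart. It therefore does not give the power in these libraries. The depth is given with the results, and intervals cover the spread between libraries, while the floor of 3 counts covers counting error only. The crossed replicate block was added after the data were seen. A few list genes are not reported here.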

Additional observations from a re-analysis of the deposited data

How the results depend on the processing

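Against vehicle, where the choice of the genes used these levels, the log2 fold changes ranged over the alternatives run (for C1ra and C4b, in the filterByExpr fit) from -3.58 to -2.81 for C3, from -3.62 to -3.04 for C1s1, from -4.44 to -3.54 for C1ra and from -4.51 to -3.04 for C4b. The number of the 9 genes called depended on the filter. Against 2 under the study's filter, it was 4 with filterByExpr and 4 with at least 10 counts in total for DMSO against vehicle, and 4 and 5 for BI6727 against vehicle, since more genes were tested. Leaving out single replicates gave 2 in both comparisons, and 4 to 5 with filterByExpr. The wider complement list, with 2 calls in each comparison with vehicle, had 4 with either filter for DMSO and 5 for BI6727. With a replicate left out, it ranged from 0 to 2 for DMSO and from 1 to 2 for BI6727 (1 without vehicle replicate 1 or either BI6727 replicate), and with filterByExpr from 2 to 6 and from 3 to 6, against 4 and 5, the low ends being without vehicle replicate 1 for DMSO and without either vehicle or either BI6727 replicate for BI6727. Cd55, not called against vehicle, was called under 9 of 16 alternatives for DMSO and 10 of 16 for BI6727, where its log2 fold change ranged from -2.33 to -1.11.

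Between BI6727 and DMSO, 0 genes of either list were called in any setting, also with each replicate left out (0 to 0). A call also needed a fold change above 2, which C3 did not reach at its largest log2 fold change of 0.66, whatever its p-value. The absence of a call for C3 is thus not evidence of an absent difference. The direction of 5 of the 6 genes fitted rested on single libraries. With a replicate left out, the log2 fold change ranged from -0.08 to 0.66 for C3, from -0.41 to 0.07 for C1s1, from -0.72 to 0.09 for C1ra, from -0.997 to 0.22 for Cd55 and from -0.44 to 0.05 for Masp1, while that of C4b kept its sign (0.47 to 1.20). It turned without DMSO replicate 1 for C1s1 (0.029) and Masp1 (0.052), without DMSO replicate 2 for C3 (-0.082), and without BI6727 replicate 1 for C1s1 (0.065), C1ra (0.091) and Cd55 (0.219).

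Replicate numbers are shared between groups by name only. Over genes, the deviations of same-numbered replicates correlated at -0.11 (vehicle, DMSO), -0.26 (DMSO, BI6727) and 0.05 (BI6727, vehicle). With the replicate block, 2 of the 9 genes were called in each comparison with vehicle and 0 between BI6727 and DMSO, as without it, and 4 with filterByExpr. The crossed block gave 2, and 4 and 5 with filterByExpr. Depth limits Cfd and Serping1, whose differences were not detectable here. No difference was detectable for Cfb either, where the part of depth and that of the overlap with Gm20547 were not tested.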
